A study of Raphanus sativus with 8 samples.

Results

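The GA-treated shoots of NH-JS2, an early bolting inbred line of radish (Raphanus sativus), were compared with the GA-treated shoots of NH-JS1, a late bolting inbred line. The comparison used 4 of the 8 RNA-seq libraries of the series, chosen by their labelled line and treatment, with 2 libraries a line. NH-JS2_GA and NH-JS1_GA seedlings were 4 days old when vernalized, stayed in the cold for 10 days and then in a growth room for 14 days, had their leaves sprayed with 10 mM gibberellin (GA), and were harvested as whole shoots 6 days after the spray, at the vegetative stage. Untreated NH-JS2 and NH-JS1 shoots, also with 2 libraries a line, went through the same steps without GA and were used to show where the difference with GA departed from the one without it. Each library pooled 3 plants. Each line is 1 inbred genotype, so bolting time cannot be told apart from any other trait in which both lines differ, and because NH-JS2_GA and NH-JS1_GA were both treated, GA does not vary within the comparison.

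Flowering in the mustard family is held back by repressors such as FLC and its relatives, which cold lowers, and is promoted by the mobile protein FT and the MADS-box protein SOC1, on which the day length, vernalization, age and GA pathways meet. GA is made by a chain of oxidases, is bound by GID1 receptors and acts through the removal of DELLA repressor proteins, and in Arabidopsis it promotes bolting partly through SOC1. The roles given below are those known from Arabidopsis, from which the gene names are taken.

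The authors counted reads on 78395 radish unigenes (assembled transcripts), of which 60161 were matched to 17197 Arabidopsis genes with TAIR identifiers. Several unigenes of 1 TAIR gene can be copies, alleles or fragments that share reads, so counts were analysed per unigene and as the sum over the unigenes of each TAIR gene. The 4 GA libraries held 27627505 to 31904379 counts, and 93.6 to 95.6% of these lay on matched unigenes. Values below are counts scaled to 1 common library size, called scaled counts, and are given for replicates 1 and 2 of each line in that order. No deposited count was below 1, and 4.39 to 5.10% of the unigenes of a GA library stood at this floor, so whether a count of 1 stands for no read cannot be told. Log2 fold changes (log2FC) are NH-JS2_GA over NH-JS1_GA with their standard error (SE), and adjusted p is from edgeR's quasi-likelihood test over all unigenes or all sums. Replicate libraries had a Pearson r of 0.991 in NH-JS2_GA and 0.988 in NH-JS1_GA over log2 sums. In whole shoots, fewer cells of a type and less RNA per cell cannot be told apart.

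The thresholds of the study for a differentially expressed gene (DEG) were a log2FC of 0.6 or more in size, an adjusted p no higher than 0.01 and 500 read counts, the last read here as a mean reaching 500 scaled counts in 1 or both lines. By these, 1097 unigenes (1.66%) were upregulated and 840 (1.27%) downregulated in NH-JS2_GA, together 2.94% of the 65934 unigenes tested. With the 500 required in both lines, 382 and 279 unigenes were left. Among the 16483 sums tested, 503 (3.05%) were upregulated and 456 (2.77%) downregulated, together 5.82%. At an adjusted p of at most 0.05 with no other criterion, 1775 sums were higher in NH-JS2_GA (10.8%) and 1701 were lower (10.3%), together 21.1%, and this share is the background for the gene groups below. The median log2FC of all sums was 0.0001 and the median absolute log2FC was 0.24. Leaving out each of the 8 libraries in turn, 844 of the 959 DEG sums (88.0%) passed 0.05 in the same direction every time. The number of DEG sums was lowest without NH-JS2_GA replicate 2, at 238 upregulated and 185 downregulated. Of the list members below, 130 passed 0.05 in the full fit, and no log2FC of these changed sign in a leave-out. Members kept in every leave-out had an adjusted p of up to 0.0058 in edgeR's full fit, and the others 0.0058 or more. A leave-out also leaves 1 library in a group. A call lost in leave-outs thus had a weaker p in the full fit, and need not depend on the library named.

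**Figure D1:**
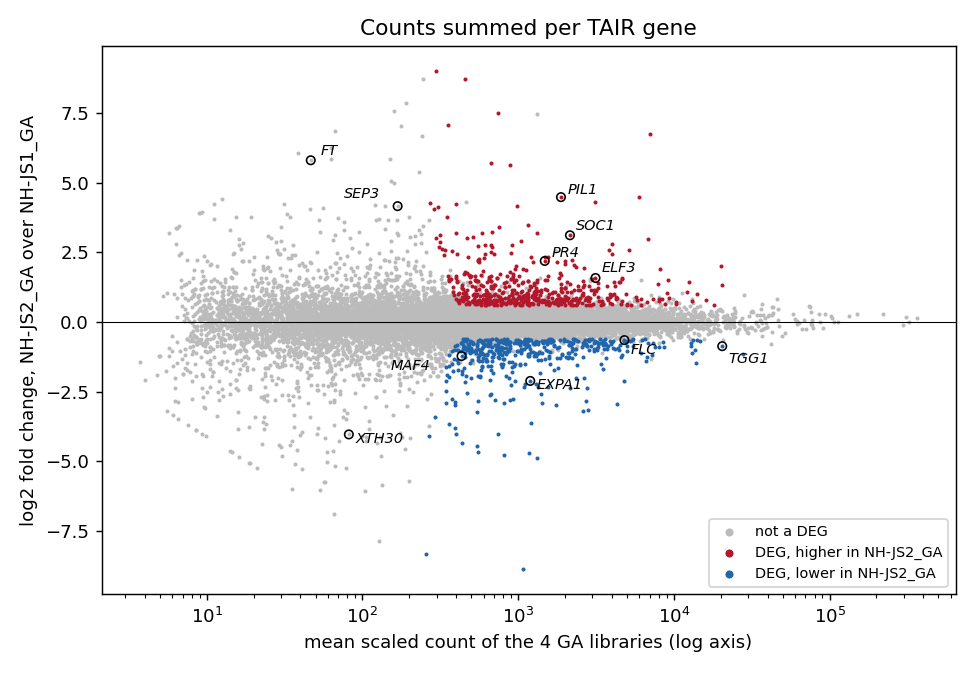
Log2FC of NH-JS2_GA over NH-JS1_GA against the mean scaled count of the 4 GA libraries on a log axis, 1 point for each of the 16483 TAIR sums tested, with 503 upregulated DEGs in red, 456 downregulated DEGs in blue and all others in grey. SOC1 (3.12), ELF3 (1.58) and PIL1 (4.49) lie above the line of no difference, EXPA1 (-2.12), FLC (-0.65) and TGG1 (-0.87) below it, and FT, SEP3 and XTH30 differ by over 4 on the log2 scale at counts under the DEG minimum.

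FT and SOC1, which promote flowering, were far higher in NH-JS2_GA. FT, the florigen, had 61.9 and 121 scaled counts in NH-JS2_GA and 2.02 and 1.01 in NH-JS1_GA. Both NH-JS1_GA libraries held almost no FT reads, 3 counts in all against 191 in NH-JS2_GA. The ratio was 61.6, with an exact 95% counting interval of 20.8 to 301. The 3 counts include the floor of 1, which may stand for no read, so the ratio and its interval are uncertain. The log2FC was 5.81 (SE 0.55, adjusted p = 0.000192), and FT is no DEG only because its counts lie under the minimum. SOC1, a MADS-box integrator of several flowering pathways, had 3247 and 4466 scaled counts in NH-JS2_GA and 503 and 385 in NH-JS1_GA. The lines did not overlap, with a log2FC of 3.12 (SE 0.27, adjusted p = 0.000111). Its 2 unigenes gave 3.11 and 3.12.

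AGL19, a MADS-box activator of flowering, had 2197 and 2229 scaled counts in NH-JS2_GA and 1062 and 1068 in NH-JS1_GA. The replicates of each line lay close together and the log2FC was 1.05 (SE 0.11, adjusted p = 0.000264). AGL42, a relative of SOC1 with a like role, ran the other way, with 1440 and 1284 scaled counts in NH-JS2_GA and 1870 and 2155 in NH-JS1_GA (log2FC -0.56, SE 0.11, adjusted p = 0.00886). The AGL42 call did not hold without NH-JS2_GA replicate 2 (adjusted p = 0.0844) or without NH-JS1_GA replicate 2. Of the 8 floral integrators and MADS activators tested, 3 were higher in NH-JS2_GA, 1 was lower and 4 did not pass, with a median log2FC of 0.13. Those that did not pass included AGL24, with 5650 and 5875 scaled counts in NH-JS2_GA and 4687 and 4614 in NH-JS1_GA (adjusted p = 0.0536), and FD, the bZIP partner of FT, with 161 and 203 in NH-JS2_GA and 244 and 231 in NH-JS1_GA (adjusted p = 0.125).

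Genes of floral organ identity were also detected in these shoots. Whether the lines differed in developmental stage at harvest was not tested. SEP3, a MADS-box cofactor in all whorls of the flower, had 311 and 327 scaled counts in NH-JS2_GA and 14.1 and 21.2 in NH-JS1_GA. SEP3 was far higher in both NH-JS2_GA libraries (log2FC 4.17, SE 0.21, adjusted p = 6.4e-06), at a level under the DEG minimum. FUL, which marks the change to an inflorescence meristem, had 288 and 316 scaled counts in NH-JS2_GA and 125 and 129 in NH-JS1_GA (log2FC 1.25, SE 0.33, adjusted p = 0.0283). This call was lost when any one of the 4 GA libraries was left out, with the highest adjusted p, 0.135, without NH-JS2_GA replicate 2. SEP4, another member of the SEPALLATA group, had 55.7 and 54.7 scaled counts in NH-JS2_GA and 150 and 125 in NH-JS1_GA, and was lower in both NH-JS2_GA libraries (log2FC -1.31, SE 0.19, adjusted p = 0.00177). In this list of 5 tested genes, 2 were higher, 1 was lower and the median log2FC was 0.62, against 1.27 without GA.

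FLC, the central repressor that vernalization silences, was lower in NH-JS2_GA. It had 3822 and 3673 scaled counts in NH-JS2_GA and 5709 and 6045 in NH-JS1_GA, with a log2FC of -0.65 (SE 0.11, adjusted p = 0.00392). The lines did not overlap, and all 8 FLC unigenes were lower in NH-JS2_GA, with a log2FC of -0.57 to -0.90. MAF4, a relative of FLC and likewise a repressor, had 219 and 300 scaled counts in NH-JS2_GA and 559 and 654 in NH-JS1_GA. Both MAF4 unigenes were lower in NH-JS2_GA, and the sum had a log2FC of -1.22 (SE 0.20, adjusted p = 0.00349). Only 3 of the 6 genes listed for this clade had a matched unigene. Of these 3, 2 were lower in NH-JS2_GA, with a median log2FC of -0.65.

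The other floral repressors moved in both directions. TOE1, an AP2-type repressor of FT, had 2276 and 1868 scaled counts in NH-JS2_GA and 4111 and 3954 in NH-JS1_GA, lower in NH-JS2_GA with a log2FC of -0.96 (SE 0.13, adjusted p = 0.00142). SVP, a MADS-box partner of FLC in repression, was higher in NH-JS2_GA, with 3065 and 2880 scaled counts in NH-JS2_GA and 2027 and 2131 in NH-JS1_GA (log2FC 0.52, SE 0.09, adjusted p = 0.00482). TEM1, which represses FT and GA synthesis genes, had 326 and 322 scaled counts in NH-JS2_GA and 127 and 238 in NH-JS1_GA, where the replicates lay far apart. Its call (log2FC 0.83, adjusted p = 0.0484) was lost in 5 of the 8 leave-outs, with the highest adjusted p, 0.164, without NH-JS2_GA replicate 1. BFT, an FT relative that represses flowering, had 27.9 and 50.03 scaled counts in NH-JS2_GA and 12.1 and 8.06 in NH-JS1_GA (log2FC 1.94, SE 0.37, adjusted p = 0.00703). The BFT call was lost without NH-JS1_GA replicate 2 (adjusted p = 0.0521) or NH-JS2_GA replicate 2. Over the 9 repressors tested outside the FLC clade, 3 were higher, 2 were lower and the median log2FC was -0.06.

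**Figure D2:**
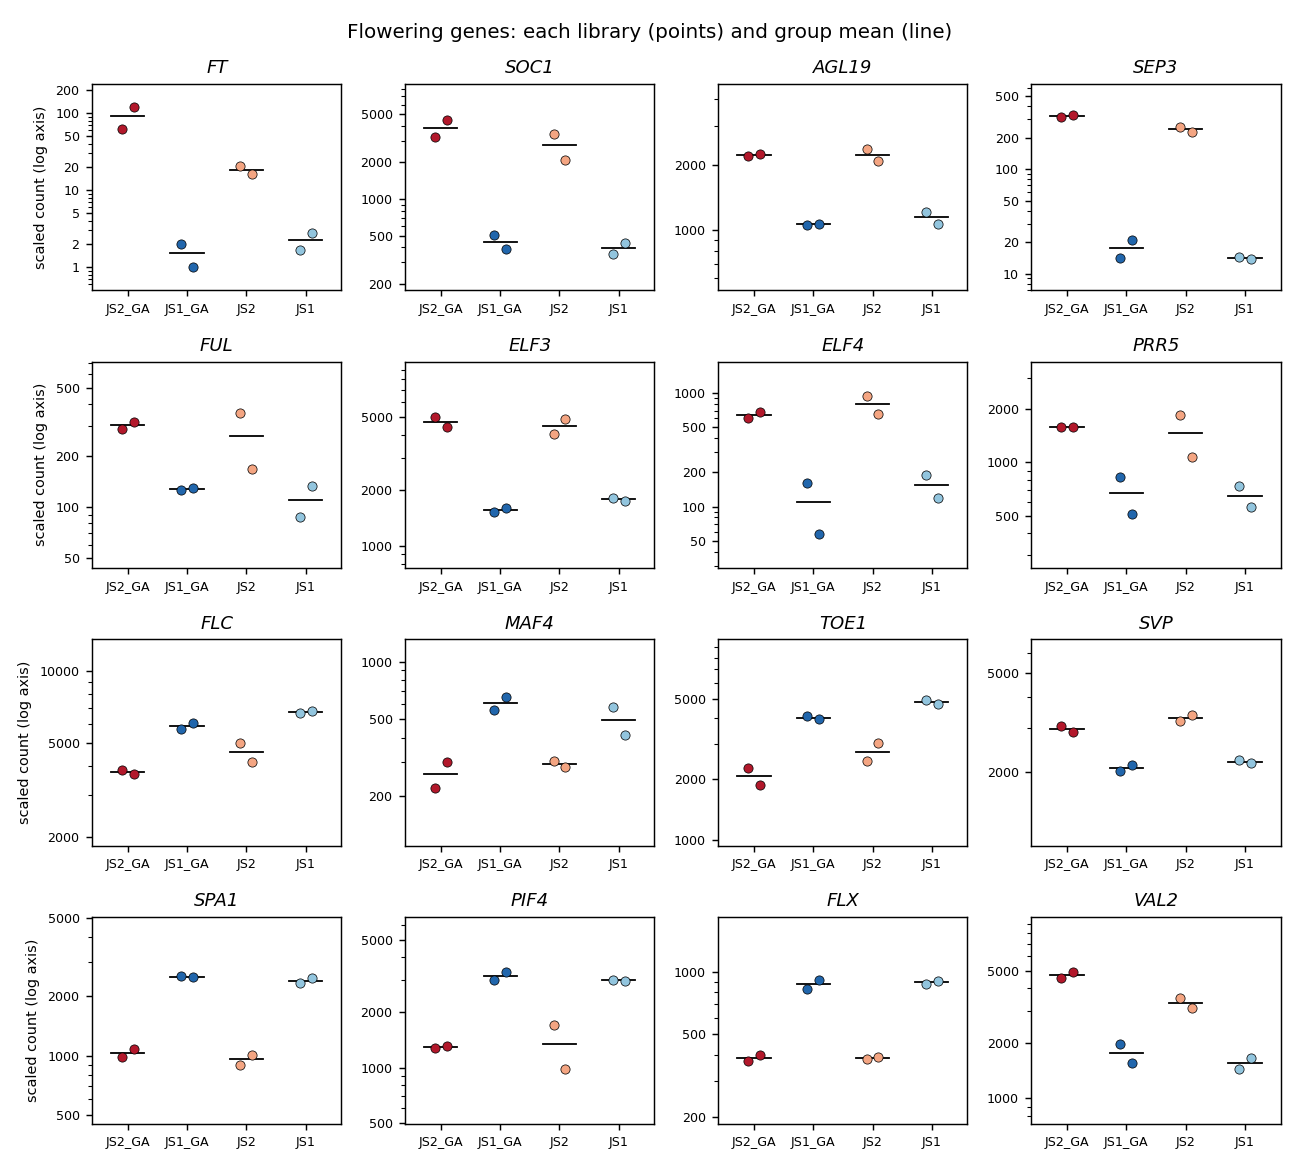
Scaled counts of 16 flowering genes on log axes, summed per TAIR gene, in each library of NH-JS2_GA (red), NH-JS1_GA (blue), NH-JS2 (orange) and NH-JS1 (light blue), with a line at each group's mean of 2 libraries. FT, SOC1, SEP3, ELF3 and ELF4 sit higher in both NH-JS2_GA libraries than in both NH-JS1_GA libraries, and FLC, MAF4, TOE1, SPA1, PIF4 and FLX sit lower.

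All shoots were harvested at the same time of day, so for clock genes a shift in timing cannot be told apart from a difference in level. Of the clock genes, 2 members of the evening complex were higher in NH-JS2_GA. ELF3, its scaffold, had 4989 and 4419 scaled counts in NH-JS2_GA and 1522 and 1616 in NH-JS1_GA (log2FC 1.58, SE 0.12, adjusted p = 5.62e-05). The lines did not overlap at any ELF3 unigene. Of its 7 unigenes, 3 had a log2FC of 3.55 to 3.87 and the other 4 had 0.53 to 0.77, so the line difference was unequal between them. ELF4, which binds ELF3, had 600 and 680 scaled counts in NH-JS2_GA and 162 and 57.4 in NH-JS1_GA (log2FC 2.55, SE 0.41, adjusted p = 0.00292). PRR5, a pseudo-response regulator, had 1575 and 1580 scaled counts in NH-JS2_GA and 827 and 509 in NH-JS1_GA (log2FC 1.24, adjusted p = 0.0165), a call lost without NH-JS1_GA replicate 2 (adjusted p = 0.0949) or without either NH-JS2_GA library. The clock genes that peak near dawn did not pass. LHY had 2032 and 1587 scaled counts in NH-JS2_GA and 1914 and 1736 in NH-JS1_GA, and CCA1 had 10130 and 9444 in NH-JS2_GA and 9060 and 9493 in NH-JS1_GA. In all, 3 of 20 clock genes were higher, 1 was lower and 16 did not pass, with a median log2FC of 0.17.

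Among genes of day length and light signalling, 2 were higher and 3 were lower of 26 tested, with a median log2FC of 0.10. The higher ones, CDF1 (log2FC 0.62) and CDF5 (log2FC 0.38), did not hold in every leave-out. SPA1, which acts with COP1 to degrade the flowering activator CO in the dark, had 986 and 1079 scaled counts in NH-JS2_GA and 2528 and 2520 in NH-JS1_GA. It was lower in both NH-JS2_GA libraries (log2FC -1.29, SE 0.10, adjusted p = 7.29e-05). PIF4, a light- and temperature-responsive bHLH factor that promotes elongation and FT, had 1271 and 1315 scaled counts in NH-JS2_GA and 2997 and 3315 in NH-JS1_GA (log2FC -1.29, SE 0.21, adjusted p = 0.00336). PIF4 was thus lower in the early bolting line, as was PIF3, with 636 and 617 scaled counts in NH-JS2_GA and 901 and 1126 in NH-JS1_GA (log2FC -0.69, SE 0.12, adjusted p = 0.00456). CO itself was low at the time of day sampled, with 17.5 and 22.2 scaled counts in NH-JS2_GA and 13.1 and 6.05 in NH-JS1_GA (log2FC 1.05, adjusted p = 0.119). GI, which acts upstream of CO, had 1262 and 1623 scaled counts in NH-JS2_GA and 1742 and 1299 in NH-JS1_GA, and the lines overlapped.

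VAL2, a B3-domain protein that helps to silence FLC, had 4547 and 4895 scaled counts in NH-JS2_GA and 1993 and 1568 in NH-JS1_GA. VAL2 was higher in both NH-JS2_GA libraries (log2FC 1.41, SE 0.14, adjusted p = 0.000248). VRN1, which keeps FLC silent after cold, had 1510 and 1389 scaled counts in NH-JS2_GA and 1121 and 1122 in NH-JS1_GA (log2FC 0.37, adjusted p = 0.0311). This call was lost in 6 leave-outs, with the highest adjusted p, 0.172, without NH-JS2_GA replicate 1. The remaining 11 of 13 vernalization and Polycomb genes did not pass, and the list's median log2FC was 0.14. VIN3, which cold induces, was low in both lines, with 36.1 and 47.2 scaled counts in NH-JS2_GA and 40.4 and 32.2 in NH-JS1_GA.

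FLX, an activator of FLC that works with FRIGIDA, had 372 and 397 scaled counts in NH-JS2_GA and 825 and 918 in NH-JS1_GA. It was lower in NH-JS2_GA (log2FC -1.18, SE 0.10, adjusted p = 0.00013), although 1 of its 5 unigenes had a log2FC of -0.04. FRIGIDA itself (FRI) had 748 and 915 scaled counts in NH-JS2_GA and 628 and 727 in NH-JS1_GA (adjusted p = 0.137). Of the 15 genes tested in the list of FRIGIDA and FLC activators, 1 was higher, 3 were lower and the median log2FC was 0.01. The calls other than FLX did not hold in every leave-out. They were SUF4 (log2FC 0.39), FRL2 (log2FC -1.37) and SEF (log2FC -0.54). In the autonomous pathway, whose members lower FLC, 1 of 14 passed (FPA, log2FC 0.43), with a median log2FC of -0.13. Among the 9 SPL genes of the age pathway, 1 passed (SPL2, log2FC -0.36), with a median log2FC of -0.03. The FPA and SPL2 calls were lost without NH-JS2_GA replicate 1 (adjusted p = 0.192 and 0.235) and in other leave-outs. Over all 10 flowering lists, 31 of 122 genes tested passed at 0.05 (17 higher, 14 lower, 25.4% against 21.1% of all sums) and 12 were DEGs. The median log2FC was 0.06.

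Of the 29 genes that the study's text names as related to flowering or GA, 24 had a matched unigene and 23 were tested. Of these, 8 were higher in NH-JS2_GA (FT, SOC1, ELF3, AGL19, GASA6, MYB59, TEM1 and VRN1), 4 were lower (FLC, PIF4, EXPA1 and VI1) and 11 did not pass. Those that did not pass included MYB28, MYB29, GNC and BETAFRUCT4. The study reports GNC, BETAFRUCT4 and MYB28 or MYB29 among its GA-related DEGs between the GA-treated lines, called on unigenes and not on sums. The call of MYB59 (log2FC 0.52) did not hold in every leave-out. Some of the 29 genes were DEGs of the study on these same libraries and others were taken up for their role or after qPCR, so their directions are not independent evidence throughout. No unigene was matched to MAF2, LFY, GAI, GA3OX1 or GA3OX2.

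No gene of GA synthesis or deactivation passed at 0.05 in edgeR. KAO2, which makes the first GA of the route, came closest, with 265 and 224 scaled counts in NH-JS2_GA and 109 and 131 in NH-JS1_GA (log2FC 1.03, SE 0.32, adjusted p = 0.0529). Of the 5 synthesis genes tested, 1 passed an unadjusted p of 0.05 and 1 passed DESeq2 at an adjusted 0.05. GA20OX3, a late oxidase, had 227 and 52.8 scaled counts in NH-JS2_GA and 103 and 148 in NH-JS1_GA. Its NH-JS2_GA replicates lay on both sides of NH-JS1_GA, and without NH-JS2_GA replicate 1 its log2FC of 0.14 became -1.25. The 2 deactivating oxidases tested did not differ beyond their spread, with 588 and 720 scaled counts of GA2OX2 in NH-JS2_GA and 653 and 639 in NH-JS1_GA, and neither passed an unadjusted p of 0.05 or DESeq2.

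Neither the receptor GID1A nor the DELLA protein RGA passed. GID1A, a GA receptor, had 400 and 326 scaled counts in NH-JS2_GA and 386 and 349 in NH-JS1_GA. RGA, a DELLA repressor, had 6030 and 6142 scaled counts in NH-JS2_GA and 5320 and 4560 in NH-JS1_GA (log2FC 0.30, adjusted p = 0.0778). Of 18 genes of GA perception and signalling, 1 was higher (SEC, log2FC 0.34) and 1 was lower (MYB65, log2FC -0.62), and the median log2FC was 0.01. Both calls were lost in 6 leave-outs, with the highest adjusted p, 0.16 for SEC without NH-JS2_GA replicate 2 and 0.17 for MYB65 without NH-JS2_GA replicate 1.

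The GASA genes, small cysteine-rich peptides many of which respond to GA, were unequal. GASA1 had 2780 and 3220 scaled counts in NH-JS2_GA and 1204 and 1032 in NH-JS1_GA (log2FC 1.42, SE 0.13, adjusted p = 0.000178). GASA6, which promotes growth in Arabidopsis, had 2630 and 2551 scaled counts in NH-JS2_GA and 1152 and 1289 in NH-JS1_GA (log2FC 1.09, SE 0.15, adjusted p = 0.00158). Both were higher in both NH-JS2_GA libraries. GASA10 was lower, with 42.3 and 38.9 scaled counts in NH-JS2_GA and 99.01 and 83.6 in NH-JS1_GA (log2FC -1.17, adjusted p = 0.0058, and 0.0566 without NH-JS2_GA replicate 2). Of 7 tested, 3 were higher, 1 was lower and the median log2FC was 1.00. Without GA the median was 0.17, but no GASA gene passed the interaction of line and GA at an adjusted 0.05.

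**Figure D3:**
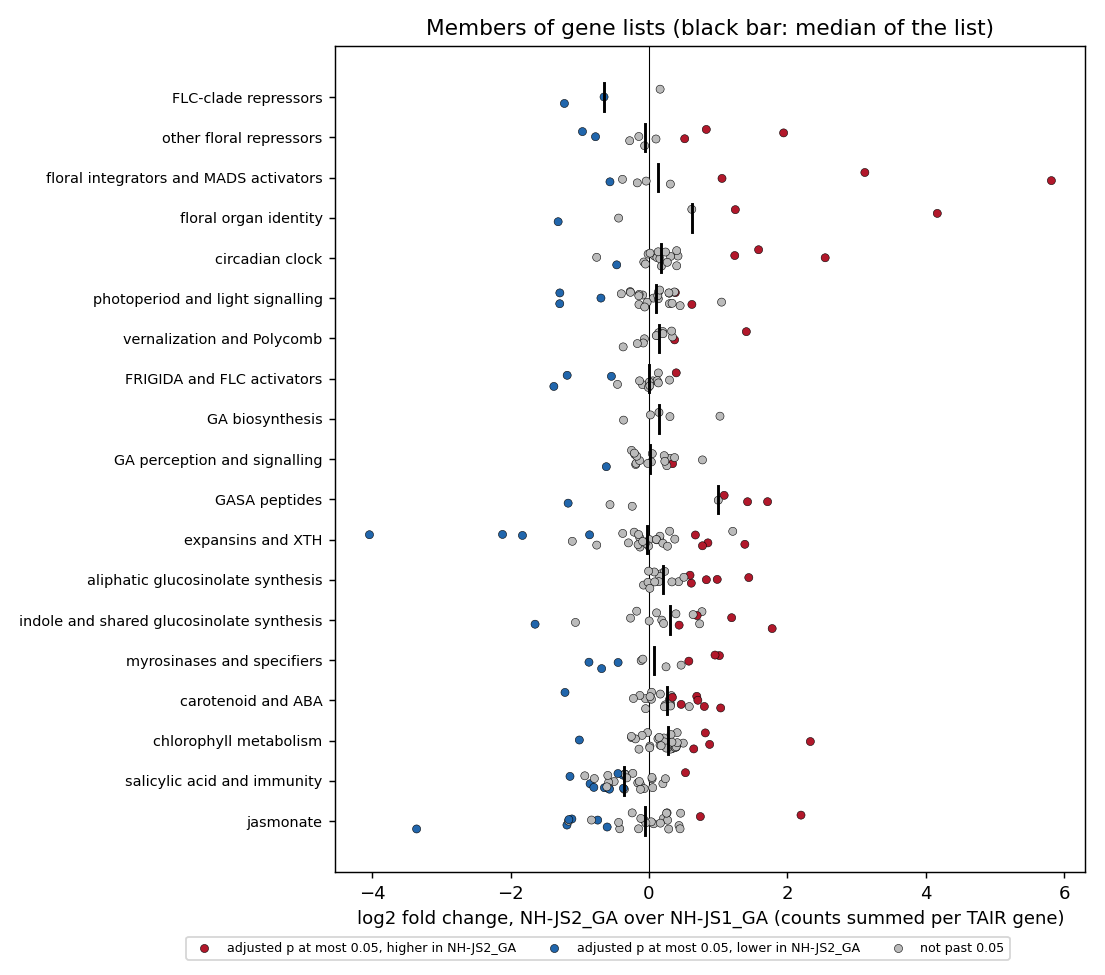
Log2FC of NH-JS2_GA over NH-JS1_GA for the tested members of 19 gene lists, 1 point a TAIR sum, red for higher and blue for lower at an adjusted p of at most 0.05, grey for the rest, with a black bar at each list's median. The list of salicylic acid and immunity has 9 blue points and 1 red one and a median of -0.36, and most lists have their median within 0.4 of 0.

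Genes that loosen or rebuild the cell wall moved in both directions, with 4 higher and 4 lower of 30 expansins and XTH enzymes (xyloglucan endotransglucosylase/hydrolases) tested and a median log2FC of -0.03. XTH6 had 11002 and 11790 scaled counts in NH-JS2_GA and 4216 and 4511 in NH-JS1_GA, higher in both NH-JS2_GA libraries (log2FC 1.38, SE 0.18, adjusted p = 0.00114). XTH9 was higher too, with 15991 and 17096 scaled counts in NH-JS2_GA and 9563 and 9804 in NH-JS1_GA (log2FC 0.77, SE 0.13, adjusted p = 0.00342). XTH30 had 9.29 and 9.26 scaled counts in NH-JS2_GA and 115 and 193 in NH-JS1_GA (log2FC -4.04, SE 0.41, adjusted p = 0.000283). EXPA1, an expansin of growing leaves, had 479 and 418 scaled counts in NH-JS2_GA and 1888 and 1997 in NH-JS1_GA (log2FC -2.12, SE 0.30, adjusted p = 0.00167). The EXPA1 difference lay on 3 of its 4 unigenes, with a log2FC of -2.15 to -5.80, while the fourth had 0.48 and did not pass (adjusted p = 0.257).

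Of the hormone lists, cytokinin genes were 3 higher and 1 lower of 26 (15.4% called, against 21.1% of all sums). CKX6, an enzyme that breaks cytokinin down, had 195 and 346 scaled counts in NH-JS2_GA and 21.2 and 21.2 in NH-JS1_GA (log2FC 3.67, SE 0.42, adjusted p = 0.000527). ARR7, a response regulator that cytokinin induces and that dampens its signal, had 125 and 85.2 scaled counts in NH-JS2_GA and 271 and 319 in NH-JS1_GA (log2FC -1.49, SE 0.25, adjusted p = 0.00354). LOG1, which activates cytokinin, was higher, with 3489 and 3443 scaled counts in NH-JS2_GA and 2225 and 2384 in NH-JS1_GA (log2FC 0.59, adjusted p = 0.00271). Auxin genes were 4 higher and 2 lower of 28 (21.4%, near the share of all sums), among them IAA19, an auxin-induced repressor of auxin response, with 968 and 787 scaled counts in NH-JS2_GA and 491 and 432 in NH-JS1_GA (log2FC 0.93, SE 0.14, adjusted p = 0.00191). TAA1, the first enzyme of the main auxin synthesis route, had 498 and 535 scaled counts in NH-JS2_GA and 989 and 927 in NH-JS1_GA (log2FC -0.89, adjusted p = 0.00843). The TAA1 call was lost without NH-JS2_GA replicate 1 (adjusted p = 0.0705) or replicate 2. Among 18 brassinosteroid genes 2 passed, both lower. These were ROT3, a synthesis enzyme, with 269 and 230 scaled counts in NH-JS2_GA and 461 and 464 in NH-JS1_GA (log2FC -0.89, adjusted p = 0.00177), and BIN2, a kinase that blocks the signal, with a log2FC of -0.45 and an adjusted p of 0.0922 without NH-JS2_GA replicate 2. Of 20 cell cycle genes, 1 was higher (CDC20.1) and 1 lower (CYCD1-1), and both calls were lost without NH-JS2_GA replicate 1 (adjusted p = 0.113 and 0.181).

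Glucosinolates are the sulphur-rich defence compounds of radish. Of 18 genes of the aliphatic branch that makes them, 5 passed (27.8%, against 21.1% of all sums) and all 5 were higher in NH-JS2_GA, with 15 of 18 positive and a median log2FC of 0.20. GSTU20, a glutathione transferase of the core pathway, had 5263 and 5425 scaled counts in NH-JS2_GA and 2821 and 2576 in NH-JS1_GA (log2FC 0.99, SE 0.10, adjusted p = 0.000339). FMOGS-OX2, a side-chain oxygenase, had 4989 and 7036 scaled counts in NH-JS2_GA and 2739 and 1688 in NH-JS1_GA (log2FC 1.44, SE 0.24, adjusted p = 0.00364). MYB28 and MYB29, the factors that switch this branch on, did not pass. MYB28 had 5771 and 5808 scaled counts in NH-JS2_GA and 6193 and 5289 in NH-JS1_GA. GSTU20 and FMOGS-OX2 held in every leave-out, while MAM1, BAT5 and UGT74C1 were each lost in 3, with the highest adjusted p, 0.0995, 0.099 and 0.136, without NH-JS2_GA replicate 1. In the indole and shared branch, 4 of 16 were higher and 1 was lower. Of these, UGT74B1, CYP81F2 and APK1 were lost in 3 to 6 leave-outs, with an adjusted p of 0.157, 0.123 and 0.115 without NH-JS2_GA replicate 1. CYP79B3, its entry enzyme, had 173 and 157 scaled counts in NH-JS2_GA and 59.6 and 36.3 in NH-JS1_GA (log2FC 1.78, SE 0.26, adjusted p = 0.00174). CYP81F3, which modifies indole glucosinolates, had 28.9 and 31.5 scaled counts in NH-JS2_GA and 115 and 74.6 in NH-JS1_GA (log2FC -1.65, SE 0.28, adjusted p = 0.00392).

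The myrosinases and the proteins that act with them, which break glucosinolates down, were 3 higher and 3 lower of 10. TGG1, the main leaf myrosinase, had 15116 and 13828 scaled counts in NH-JS2_GA and 27328 and 25463 in NH-JS1_GA (log2FC -0.87, SE 0.12, adjusted p = 0.0015). Its unigenes differed in both directions, as 4 were lower in NH-JS2_GA, with a log2FC of -0.83 to -1.08, and 2 were higher with 0.83 each. BGLU18, a beta-glucosidase that in Arabidopsis frees abscisic acid, had 1368 and 1710 scaled counts in NH-JS2_GA and 821 and 699 in NH-JS1_GA (log2FC 1.02, SE 0.15, adjusted p = 0.00223).

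Carotenoid and abscisic acid genes were 6 higher and 1 lower of 24, with a median log2FC of 0.27, but only CCD4 of these 7 held in every leave-out. CCD4, a carotenoid-cleaving dioxygenase, had 20183 and 20505 scaled counts in NH-JS2_GA and 12282 and 11088 in NH-JS1_GA (log2FC 0.80, SE 0.13, adjusted p = 0.00279). PSY, the first committed enzyme of carotenoid synthesis, had 12242 and 13264 scaled counts in NH-JS2_GA and 8030 and 7606 in NH-JS1_GA (log2FC 0.71, adjusted p = 0.00776, and 0.0603 without NH-JS2_GA replicate 2). ZISO, NCED9, CCD1, ZEP and CYP707A1 were lost in 3 to 6 leave-outs, with the highest adjusted p, 0.245 for CCD1, without NH-JS2_GA replicate 2. Chlorophyll genes were 4 higher and 1 lower of 33. The lower one was HEMA2, an enzyme of early tetrapyrrole synthesis, whose log2FC of -1.01 became 0.29 when its most abundant unigene stood in for the sum, and whose call was lost in 3 leave-outs (highest adjusted p 0.0983, without NH-JS2_GA replicate 2). Among the higher ones, NOL (log2FC 0.65) and HEME2 (log2FC 0.81) did not hold in every leave-out. CLH1 and NYC1, which act in chlorophyll breakdown or turnover, did. CLH1, a chlorophyllase, had 738 and 852 scaled counts in NH-JS2_GA and 215 and 101 in NH-JS1_GA (log2FC 2.33, SE 0.28, adjusted p = 0.000669). NYC1, a chlorophyll b reductase, had 3298 and 3737 scaled counts in NH-JS2_GA and 1749 and 2084 in NH-JS1_GA (log2FC 0.88, SE 0.12, adjusted p = 0.00139). Among 16 antenna proteins 2 passed, LHCB4.2 and LHCA1, both higher and both lost in leave-outs (adjusted p = 0.0923 and 0.186 without NH-JS2_GA replicate 2). Of 22 flavonoid and anthocyanin genes 1 passed. This was GL3, a bHLH factor that was lower in NH-JS2_GA (log2FC -1.92, adjusted p = 0.0157, and 0.115 without NH-JS2_GA replicate 1).

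Of 17 sugar genes, 5 were higher and 3 were lower. DIN10 (log2FC 0.70) and CINV1 (log2FC -0.39) were among these calls but did not hold in every leave-out. Several of the calls lay on the raffinose route. GOLS3, a galactinol synthase, had 36.1 scaled counts in both NH-JS2_GA libraries and 4.04 and 1.01 in NH-JS1_GA (log2FC 3.78, SE 0.57, adjusted p = 0.00217). SIP1, annotated as a raffinose synthase, had 205 and 228 scaled counts in NH-JS2_GA and 18.18 and 59.5 in NH-JS1_GA (log2FC 2.48, SE 0.39, adjusted p = 0.00268). GOLS2 was higher (log2FC 0.91) while GOLS1 was lower (log2FC -1.25), and these calls were lost without NH-JS2_GA replicate 2 (adjusted p = 0.0929) and without NH-JS1_GA replicate 1 (adjusted p = 0.218), among other leave-outs. VI1, a vacuolar invertase that splits sucrose, had 390 and 397 scaled counts in NH-JS2_GA and 967 and 766 in NH-JS1_GA (log2FC -1.14, SE 0.15, adjusted p = 0.000958). SUS1, a sucrose synthase, was higher, with 5472 and 4111 scaled counts in NH-JS2_GA and 2706 and 2619 in NH-JS1_GA (log2FC 0.85, SE 0.14, adjusted p = 0.00356).

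Nitrogen genes were 2 higher and 3 lower of 24. AMT1-1, an ammonium transporter, had 590 and 556 scaled counts in NH-JS2_GA and 1259 and 1088 in NH-JS1_GA (log2FC -1.03, SE 0.13, adjusted p = 0.000714). NRT1.7, a transporter that moves nitrate out of older leaves, had 3318 and 3172 scaled counts in NH-JS2_GA and 948 and 571 in NH-JS1_GA (log2FC 2.09, SE 0.26, adjusted p = 0.000741). Without GA the NRT1.7 difference was smaller, with 3656 and 3007 scaled counts in untreated NH-JS2 and 1655 and 2477 in untreated NH-JS1 (log2FC 0.69, adjusted p = 0.0763), and the interaction of the sum did not pass.

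Genes of salicylic acid and immunity leaned lower in NH-JS2_GA, with 1 higher and 9 lower of 32 tested. Of the 32, 26 had a negative log2FC and the median was -0.36, against 0.0001 over all sums. Without GA the median of this list was -0.43, so the lean was not limited to the GA-treated lines. BIK1, a kinase downstream of immune receptors, had 101 and 115 scaled counts in NH-JS2_GA and 254 and 224 in NH-JS1_GA (log2FC -1.14, SE 0.15, adjusted p = 0.000966). WRKY18, a transcription factor of the immune response, had 438 and 437 scaled counts in NH-JS2_GA and 659 and 708 in NH-JS1_GA (log2FC -0.64, SE 0.10, adjusted p = 0.00221). CBP60G, a calmodulin-binding activator of salicylic acid synthesis, had a log2FC of -0.45 (adjusted p = 0.0241, and 0.174 without NH-JS2_GA replicate 2). WRKY33 was the 1 member that was higher (log2FC 0.53, adjusted p = 0.0262, and 0.136 without NH-JS2_GA replicate 1). Only BIK1 of the 10 calls held under every alternative run.

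Jasmonate genes were 2 higher and 6 lower of 28 (28.6%, against 21.1% of all sums). The calls of JMT (higher) and of MYC2, AOC3, VSP2 and JAZ6 (lower) did not hold in every leave-out. LOX1, a lipoxygenase, had 1135 and 1189 scaled counts in NH-JS2_GA and 2736 and 2549 in NH-JS1_GA (log2FC -1.19, SE 0.12, adjusted p = 0.00023). PR3, a chitinase, had 5.16 and 7.41 scaled counts in NH-JS2_GA and 64.7 and 67.5 in NH-JS1_GA (log2FC -3.36, SE 0.31, adjusted p = 0.000177). PR4, a hevein-like protein of the same defence response, ran the other way, with 2982 and 1883 scaled counts in NH-JS2_GA and 398 and 663 in NH-JS1_GA (log2FC 2.196, SE 0.30, adjusted p = 0.00131). Of 3 Kunitz protease inhibitors, 1 was lower, WSCP, with 7243 and 7370 scaled counts in NH-JS2_GA and 23776 and 16944 in NH-JS1_GA (log2FC -1.48, SE 0.26, adjusted p = 0.00473).

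The cold list gave 1 higher and 2 lower of 11, and the heat list 2 higher and 1 lower of 18. COR15B, a cold-induced protein of the chloroplast, had 323 and 282 scaled counts in NH-JS2_GA and 52.5 and 17.1 in NH-JS1_GA (log2FC 3.11, SE 0.37, adjusted p = 0.000642). KIN2, also cold-induced, was lower, with 717 and 985 scaled counts in NH-JS2_GA and 2586 and 1680 in NH-JS1_GA (log2FC -1.32, SE 0.22, adjusted p = 0.0034). HSFA1A, a regulator of the heat response, had 156 and 140 scaled counts in NH-JS2_GA and 440 and 655 in NH-JS1_GA (log2FC -1.89, SE 0.20, adjusted p = 0.000378). HSP21, a chaperone of the chloroplast, had 48.5 and 66.7 scaled counts in NH-JS2_GA and 12.1 and 11.1 in NH-JS1_GA (log2FC 2.303, SE 0.31, adjusted p = 0.00121). Members of both lists thus differed in opposite directions. The remaining calls, ERD10 of the cold list (lower) and HSP101 of the heat list (higher), did not hold in every leave-out.

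Markers of tissues that a whole shoot could hold in unequal amounts gave few differences. None of 8 leaf photosynthesis markers passed at 0.05, at an unadjusted p of 0.05 or with DESeq2, and their summed level was 1361643 and 1447219 scaled counts in NH-JS2_GA and 1147357 and 1385150 in NH-JS1_GA. None of 4 shoot meristem and stem markers passed, 1 did at an unadjusted p of 0.05 and 1 with DESeq2, and ERECTA, the member with the largest gap, had 2441 and 2625 scaled counts in NH-JS2_GA and 3668 and 3332 in NH-JS1_GA (adjusted p = 0.056). The summed level of this list was 3594 and 3857 scaled counts in NH-JS2_GA and 4903 and 4515 in NH-JS1_GA. LHCB1.3 and RCA of the leaf list were among the 10 most abundant sums, and of 13 root markers only IRT1 had a matched unigene, with 2.06 and 4.63 scaled counts in NH-JS2_GA and 12.1 and 7.05 in NH-JS1_GA. Of 7 vascular markers 1 was higher (XCP1, log2FC 0.32) and of 5 epidermal ones 1 was lower (TMM, log2FC -0.52), both lost in 6 leave-outs with an adjusted p of up to 0.244 and 0.213. The part of tissue makeup in the results above was not tested.

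Among DEG sums, which leave out low genes such as FT, the 10 largest differences in each direction lay on genes with far lower counts in one line than in the other. Upregulated in NH-JS2_GA were AT3G17500, an F-box protein with 556 and 626 scaled counts in NH-JS2_GA and 1.01 in both NH-JS1_GA libraries, which is at least 195-fold higher against 3 counts per library, and AT4G01730, a DHHC-type zinc finger protein with 12976 and 14900 in NH-JS2_GA and 100 and 154 in NH-JS1_GA (log2FC 6.78, adjusted p = 1.17e-06). QRT1, a pectin methylesterase needed in Arabidopsis for pollen grains to separate, had 1378 and 1590 scaled counts in NH-JS2_GA. In NH-JS1_GA each of its 8 unigenes stood at the floor in both libraries, and NH-JS2_GA was at least 56.4- to 64.9-fold higher per unigene. PIL1, a bHLH factor that responds quickly to shade, had 3521 and 3691 scaled counts in NH-JS2_GA and 166 and 155 in NH-JS1_GA (log2FC 4.49, SE 0.12, adjusted p = 3.7e-07). AT3G21330, another bHLH factor, had 6347 and 5585 scaled counts in NH-JS2_GA and 187 and 411 in NH-JS1_GA (log2FC 4.32, adjusted p = 0.000209). AT1G22630, whose unigenes all stood at the floor in NH-JS1_GA, was at least 148.6- to 151.6-fold higher per unigene. Further sums in this group were AT3G53590 (a leucine-rich repeat kinase), AT5G38020 (a methyltransferase), AT3G54730 and AT1G77680 (a ribonuclease), with a log2FC of 7.09, 5.73, 5.66 and 4.50.

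Downregulated most were AT1G30690, a Sec14-type lipid transfer protein with 3.10 and 5.56 scaled counts in NH-JS2_GA and 2131 and 2143 in NH-JS1_GA (log2FC -8.89, adjusted p = 3.7e-07), and ANT1, a transporter of amino acids. ANT1 had 1.03 and 1.85 scaled counts in NH-JS2_GA and 500.1 and 514 in NH-JS1_GA. The ratio of NH-JS1_GA over NH-JS2_GA was 346, with an exact 95% counting interval of 118 to 1681. The NH-JS2_GA counts lay at or near the floor, so the ratio and its interval are uncertain. ATSMO1, a sterol methyl oxidase, had 85.7 and 88.9 scaled counts in NH-JS2_GA and 2143 and 2406 in NH-JS1_GA (log2FC -4.70, SE 0.13, adjusted p = 3.7e-07). AT1G53350, annotated as a disease resistance protein of the NBS-LRR class, had 57.8 and 55.6 scaled counts in NH-JS2_GA and 1534 and 1592 in NH-JS1_GA (log2FC -4.78, adjusted p = 3.7e-07). The other sums in this group were AT5G33406 (transposase-related), AT3G59845 (a dehydrogenase), AT1G63200 (cystatin-like), AT3G04050 (a pyruvate kinase), AT5G61260 (calmodulin-binding) and AT2G04230 (an F-box protein), with a log2FC of -4.90 to -4.04. All 20 of these sums differed in the same direction without GA.

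Some unigenes stood at the floor of 1 count in both libraries of one line and had counts in the other. At the floor in both NH-JS1_GA libraries, with a mean of at least 100 scaled counts in NH-JS2_GA, stood 157 unigenes (0.2% of the 78395 in the table), of which 96 had a match. In 13 of these 157, NH-JS2_GA replicate 1 was itself under 10 scaled counts, so they rest on replicate 2. Some of the 13 were also low in replicate 1 of untreated NH-JS2, such as TBIU028058 with 1.04 and 348 scaled counts there. TBIU075170 instead had 198 and 5.53 there. Of the 157, 135 had at least 100 in both NH-JS2_GA libraries. The reverse held for 188 unigenes (0.24%), of which 78 had a match and 169 had at least 100 in both NH-JS1_GA libraries. Without GA, 0 of the 157 reached 100 in NH-JS1, and 0 of the 188 reached 100 in NH-JS2. Among the 8 largest differences of matched unigenes upward were 3 of AT3G15960 (mismatched DNA binding), 3 of AT4G01730 and 1 of ARA-3, a RAB GTPase that had 933 and 994 scaled counts in NH-JS2_GA and stood at the floor in NH-JS1_GA, at least 319-fold higher. Among the 8 largest downward were 3 unigenes of CRK8, a receptor-like kinase, at least 249- to 285-fold lower in NH-JS2_GA, and 3 of AT3G42170, a hAT transposase-like protein, at least 261- to 293-fold lower. A unigene of AT1G64260, a MuDR transposase, stood at the floor in both NH-JS2_GA libraries but had 791 and 13504 scaled counts in NH-JS1_GA, so its size rests on NH-JS1_GA replicate 2.

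The unigenes of 1 TAIR gene did not always differ alike. Of 11556 TAIR genes with at least 2 unigenes tested, 1001 had all unigenes past 0.05 in 1 direction, and 427 (3.70%) had unigenes past 0.05 in both directions. Over all unigenes 28.7% passed 0.05, 14.4% upward and 14.3% downward. In 16 TAIR genes DEG unigenes lay in both directions, among them WSCP (2 up, 5 down), UBQ10, a polyubiquitin gene (2 up, 6 down), and CRK8 (1 up, 4 down). Of the 885 TAIR genes with a DEG unigene, 551 (62.3%) were also DEGs as a sum and 334 were not, and 81 of these 885 had a summed absolute log2FC under 0.3. In the other direction, 408 of the 959 DEG sums had no DEG unigene. Reads that fit more than 1 near-identical unigene could have been split between them by the authors' counting, and strand was not stated to be used. Values of single unigenes are therefore uncertain. If such reads were instead counted at each unigene, a sum would hold them more than once. Which of these applied was not tested, so neither level is taken as the more certain.

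**Figure D4:**
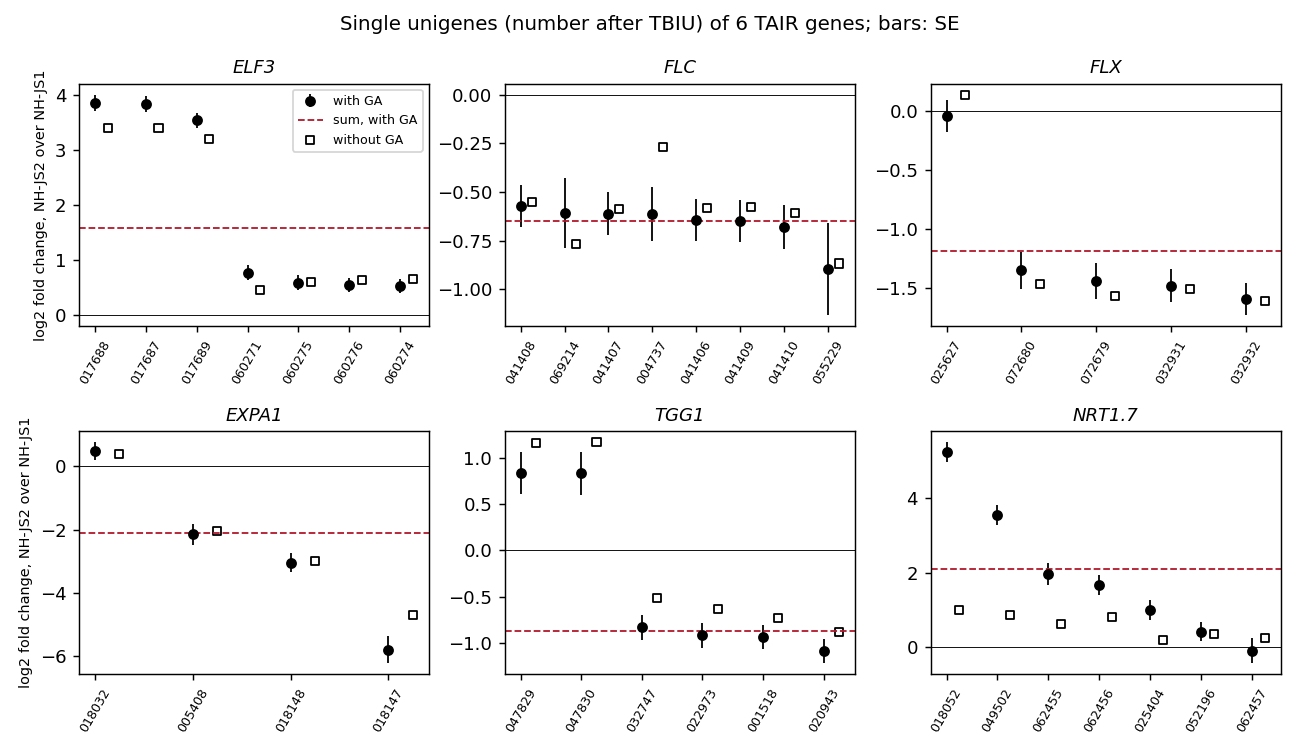
Log2FC of each unigene of ELF3, FLC, FLX, EXPA1, TGG1 and NRT1.7 with GA (filled points, bars are 1 SE) and without GA (open squares), NH-JS2 over NH-JS1, with a dashed line at the log2FC of the sum with GA. The 3 ELF3 unigenes at 3.55 to 3.87 stand apart from the other 4 at 0.53 to 0.77, the 8 FLC unigenes lie together, TGG1 has 4 unigenes below 0 and 2 above, and NRT1.7 has 1 unigene at 5.24.

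The difference between the lines with GA was set beside the one without it. The 2 comparisons share no library, but their calls come from 1 fit of all 8 libraries with a shared estimate of the spread. The 2 sets of calls are thus not independent tests. Of the 959 DEG sums with GA, 755 (78.7%) were DEGs in the same direction without GA, which is 69.7% of the 1083 DEGs without GA (6.57% of sums), and 0 were DEGs in the opposite direction. Of the other 204, 159 passed 0.05 without GA in the same direction and 45 did not pass. Over the 959 DEG sums, 954 had the same sign without GA, Pearson r of the log2FC values was 0.977 across these genes, which were chosen by their difference with GA and are not independent replicates (0.896 over all tested sums), and the median absolute difference was 0.14. FT had a log2FC of 5.81 with GA and 3.003 without it, where it had 20.4 and 16.5 scaled counts in untreated NH-JS2 and 1.69 and 2.79 in untreated NH-JS1, but its interaction did not pass (adjusted p = 1.00). SOC1 had 3.12 with GA and 2.82 without, and FLC -0.65 with GA and -0.56 without.

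Whether the line difference itself differed with GA was tested as the interaction of line and GA. It passed an adjusted p of 0.05 for 39 unigenes (0.0592%), 9 more positive with GA (0.0137%) and 30 more negative (0.0455%), and for 4 sums (0.0243%), 1 more positive (0.00607%) and 3 more negative (0.0182%). At an unadjusted p of 0.05, 2782 unigenes (4.22%) and 682 sums (4.14%) passed, and DESeq2 called 62 unigenes and 23 sums. AT3G08950, an SCO1-type electron transport protein, had 312 and 306 scaled counts in NH-JS2_GA and 1533 and 1446 in NH-JS1_GA, against 1750.3 and 1748 in untreated NH-JS2 and 1730.5 and 1729.9 in untreated NH-JS1. NH-JS2_GA alone was low, and the interaction was -2.29 on the log2 scale (SE 0.13, adjusted p = 0.000731), past 0.05 in every alternative run. AT3G08030, of the DUF642 family, had 1133 and 1064 scaled counts in NH-JS2_GA and 368 and 357 in NH-JS1_GA, against 241 and 245 in untreated NH-JS2 and 317 and 279 in untreated NH-JS1 (interaction 1.90, adjusted p = 0.012). In AT3G08030 NH-JS2_GA alone was high. AT5G12000, a protein kinase, and AT5G01320, a pyruvate decarboxylase, were lowest in NH-JS1, with 8.43 and 5.58 scaled counts of AT5G12000 and 68.3 and 62.3 of AT5G01320 there, so that the difference was smaller with GA (interaction -3.53 and -1.85, adjusted p = 0.0172 for both). The interaction calls of AT3G08030, AT5G12000 and AT5G01320 were lost in 6, 5 and 7 leave-outs in that order. Their highest adjusted p was 0.124 for AT3G08030, without NH-JS2_GA replicate 1, and 0.241 for AT5G12000 and 0.257 for AT5G01320, both without NH-JS1 replicate 2. A replicate block also ended the calls of AT5G12000 (adjusted p = 0.0584) and AT5G01320 (adjusted p = 0.0726). Of the 122 flowering genes tested, none passed the interaction in edgeR or in DESeq2, and 5 had an unadjusted p below 0.05.

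**Figure D5:**
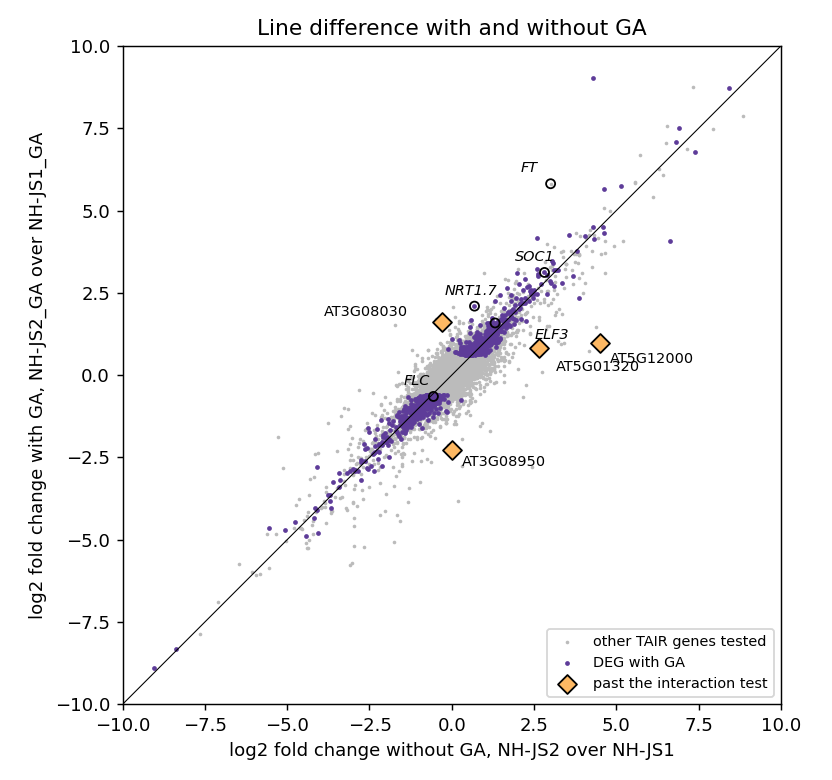
Log2FC with GA (NH-JS2_GA over NH-JS1_GA, vertical) against log2FC without GA (NH-JS2 over NH-JS1, horizontal) for the 16483 sums tested, with DEGs with GA in purple, the 4 sums past the interaction test as orange diamonds and a diagonal where both are equal. Most DEGs lie near the diagonal, AT3G08950 lies at -2.27 with GA and 0.02 without, and FT lies above the diagonal at 5.81 and 3.003.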

How the data were processed

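RNA from whole shoots was sequenced as paired-end polyA libraries. After quality trimming, the authors aligned reads to the unigene set with Bowtie2 2.1.0, with at most 2 mismatches, and deposited the raw counts. TopHat also appears in the submitters' processing notes, with no version given in the sources used here. The counts were used as deposited. The table's 8 normalized columns were not used, nor were the 4 columns of log2 fold changes that hold the authors' own comparisons.

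Counts per unigene and counts summed per TAIR gene were filtered (filterByExpr), scaled by TMM and fitted with edgeR 4.0.16 (R 4.3.3) by the quasi-likelihood test, with 1 mean for each of 4 groups over all 8 libraries, with Benjamini-Hochberg adjustment over all features. The interaction was a contrast of the same fit. The code was tested on simulated data. The p-values measure the spread between the 2 pools of a group, estimated over all 4 groups together. Alternatives were DESeq2 1.42.0, RLE size factors, no filter, only the 4 GA libraries, a replicate block, other DEG criteria, the most abundant unigene of each TAIR gene, leaving out each library, and 1 subtracted from every count, the last chosen after seeing the data. Counting intervals are exact binomial, cover counting error only and take a count at the floor as 1 read.

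Genes named were those named in the study, the 10 largest DEG sums and 8 largest matched DEG unigenes a direction, up to 6 called members a list and up to 10 interaction features a level. Other genes with values were chosen after their values were seen, as were list members that did not pass. The 38 lists and the comparison were chosen with earlier results of these data known. No sequence is shown, since the unigenes' sequences were not used here.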

Additional observations from a re-analysis of the deposited data

Results flagged for a closer look

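The line difference with GA departed from the one without GA, by the interaction test of edgeR, for 4 TAIR sums and, among the unigenes, for the 10 with the smallest adjusted p. Values are interactions on the log2 scale, so that a negative value means a lower ratio of NH-JS2_GA to NH-JS1_GA than of NH-JS2 to NH-JS1.

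Of the sums, AT3G08950 had -2.2858 and its unigenes TBIU039244 and TBIU039243 had -2.277 and -2.2652. AT3G08030 had 1.8958, AT5G12000 had -3.5303 and AT5G01320 had -1.8495. The other unigenes fell into 1 pattern, in which NH-JS2_GA alone stood near the floor with 4 and 3 deposited counts. They were TBIU069268 (-5.645), TBIU041688 (-5.5192), TBIU069267 (-5.6704), TBIU069266 (-5.4224) and TBIU069269 (-5.5755) of AT2G17280, a phosphoglycerate mutase family protein, TBIU069264 (-5.4213) of AT1G14800, and TBIU069270 (-5.2441) and TBIU069265 (-5.1504), which have no match. All unigenes of this pattern had the same NH-JS2_GA counts, so they may share reads and need not be separate results, which was not tested. TBIU069268 had 4.13 and 2.77 scaled counts in NH-JS2_GA and 188 and 196 in NH-JS1_GA, against 187 and 216 in untreated NH-JS2 and 204 and 231 in untreated NH-JS1. Summed over all 7 unigenes, AT2G17280 had 781 and 698 scaled counts in NH-JS2_GA and 1308 and 1204 in NH-JS1_GA (log2FC -0.76, adjusted p = 0.00157 in edgeR's quasi-likelihood test), and its interaction of -1.04 did not pass (adjusted p = 0.227). With its most abundant unigene in place of the sum, the log2FC of AT2G17280 was 1.05 (adjusted p = 0.00169), the opposite direction.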

How the results depend on the processing

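With the tested choices of scaling, filter, fit and 1 subtracted from every count, the counts of DEGs stayed within 1.5 times their values in the report. A log2FC of at least 1 in size left 592 up and 429 down unigenes and 240 up and 212 down sums. Without the count minimum there were 5773 and 5821 unigenes and 842 and 810 sums, and with it required in both lines 382 and 279 unigenes and 302 and 268 sums. The most abundant unigene in place of the sum gave 333 up and 254 down. Leaving out 1 library gave 768 to 1266 up and 539 to 932 down unigenes, 238 to 613 up and 185 to 532 down sums. The interaction counts ranged in leave-outs over 5 to 21 unigenes more positive and 16 to 42 more negative, and over 0 to 2 sums more positive and 1 to 4 more negative. DESeq2 gave 22 unigenes and 11 sums more positive and 12 sums more negative, and the most abundant unigene gave 3 sums more positive. GA20OX3 ran over -1.25 to 0.86 in leave-outs, lowest without NH-JS2_GA replicate 1, and HEMA2 (AT1G09940) became 0.29 with its most abundant unigene. The cause was not tested.

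The replicate numbers were not taken to pair the samples. Same-numbered libraries had a correlation of deviations of -0.005 over sums between NH-JS2_GA and NH-JS1_GA. Over the 6 pairs of groups it ran from -0.19 (NH-JS2 with NH-JS1) to 0.22 (NH-JS2 with NH-JS1_GA). Over unigenes it ran from -0.14 (NH-JS2 with NH-JS1) to 0.17 (NH-JS2 with NH-JS2_GA). With a replicate block the DEG sums were 485 up and 429 down, the DEG unigenes 1085 up and 821 down, and the interaction sums more negative were 1, AT3G08950. Of the 130 list members called at 0.05, 55 were called in every leave-out, and no log2FC of a called member changed sign in them.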

Other observations

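Among the 39 unigenes past the interaction test, the group farthest from the median of the group means was NH-JS2_GA, lower, for 17, NH-JS1, lower, for 13, NH-JS2, lower, for 5, NH-JS1_GA, lower, for 3, and NH-JS2_GA, higher, for 1. In 14 of the 39 the unigene had no match. Some of the 39 had identical counts in a group, such as TBIU025188 and TBIU025189, each with 2.52 and 1.84 scaled counts in untreated NH-JS1. Such unigenes may share reads, so the 39 need not be separate results. The genes named next were chosen after their values were seen.

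TBIU018052 was 1 of the 3 unigenes in which NH-JS1_GA was farthest, on the low side. TBIU018052, one of the 7 unigenes of NRT1.7, had 506 and 451 scaled counts in NH-JS2_GA and 11.1 and 14.02 in NH-JS1_GA, against 541 and 422 in untreated NH-JS2 and 206 and 283 in untreated NH-JS1 (interaction 4.25, adjusted p = 0.00203 in edgeR). Unigenes of AT3G17310, a methyltransferase, were lowest in NH-JS2. TBIU027710 of AT3G17310 had 226 and 470.2 scaled counts in NH-JS2_GA and 572 and 557 in NH-JS1_GA, against 11.4 and 6.91 in untreated NH-JS2 and 494 and 462 in untreated NH-JS1.

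The 39 unigenes included 8 that matched 5 TAIR genes with neighbouring Arabidopsis IDs, between AT3G08030 and AT3G09780. They include AT3G08950 and AT3G09100, an mRNA capping enzyme. TBIU039250 of AT3G09100 had 12.4 and 10.2 scaled counts in NH-JS2_GA and 144 and 144 in NH-JS1_GA, against 135 and 116 in untreated NH-JS2 and 144 and 134 in untreated NH-JS1. Of the 307 tested unigenes whose match lies in this span, 48 (15.6%) had an unadjusted interaction p of at most 0.05, against 4.22% of all unigenes, and of its 94 tested sums 9 (9.57%) did, against 4.14% of all sums. The span was set from the same data, so these shares are a description.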
